A study of Mus musculus with 2 samples.

Results

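Iron enters, is sensed in and leaves liver cells through a small set of proteins, and 10 of their genes were followed in adult male mouse liver with and without Fhl2, a LIM-domain adaptor of nuclear and signalling proteins. They are Tfrc, Trf and Slc11a2 for uptake, Tfr2, Hfe, Bmp6 and Hamp for sensing, Slc40a1 for export, and Aco1 and Ireb2 for the iron regulatory proteins. The members were listed by name but selected on earlier values of these same arrays, in which Tfrc was among the lower transcripts, and each was measured by 1 array probe set, called a probe here. They are 10 of 19938 genes with a probe annotated to that gene alone, and all 10 lay above the level filter that 11924 genes passed.

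The groups were a wild-type pool and an FHL2-/- pool, each of left-lobe liver RNA from 3 male mice aged 10 to 11 weeks on a hybrid Black Swiss/129-SV/J background. Each pool was hybridised to 1 array. There are therefore no replicates, no test and no p-value, pooling hides the spread between mice, and every difference is one between these pools. Levels are the authors' array values, whose log base is not stated. They are taken as log2 from their range and from the RMA processing named for them. A difference is the FHL2-/- value minus the wild-type value on that scale. The sole repeat measurement was that of several probes for the same gene, whose differences had an SD of 0.143 over 660 genes. This SD is pooled over all levels past the filter and covers differences between probes only. It is not matched to the level of a member. Values of different genes are not ranked by level, because probes differ in brightness for equal amounts of RNA.

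Plasma iron travels bound to transferrin, which cells take up through the transferrin receptor and unload in endosomes. Hepatocytes also measure it: BMP signals from the sinusoidal endothelium, together with HFE, TFR2 and hemojuvelin on the hepatocyte, drive the hormone hepcidin, and inflammation drives it through STAT3. Hepcidin closes ferroportin, the exporter through which iron leaves hepatocytes and macrophages. Inside cells the iron regulatory proteins bind iron-responsive elements in mRNAs, which stabilises the transferrin receptor mRNA and blocks ferritin translation when iron is scarce.

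As fits liver, all 10 hepatocyte markers lay above the level filter of 5.44, albumin (Alb) at 13.74 in the wild-type pool and 13.67 in the FHL2-/- pool. Fhl2 itself was at 5.30 and 5.33, under the filter in both pools, and the labels do not say which part of the gene was removed, so its probe checks nothing about the genotype. Macrophage markers were lower in the FHL2-/- pool for 12 of 13 genes (10 of 13 after a shift of both arrays to the same median). Sinusoidal endothelial markers were higher for 12 of 13 (between 10 and 13 under the other scalings). Over all genes past the filter 59.5% were higher, 69.2% after the median shift and 50.6% with the trend on level removed.

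Of the 10 iron genes, 1 was at least 1.5-fold lower in the FHL2-/- pool and 0 were as much higher. Over all genes past the filter 0.335% were at least 1.5-fold lower and 0.621% at least 1.5-fold higher, a split of 40 against 74 that became 30 against 90 after the common median shift. Since Tfrc was known when the members were listed, nothing is read from its count. The members lay evenly about 0, with 5 above and 5 below it, against 59.5% of all genes above 0. With a common median 7 were above 0, with quantile normalisation 6 and with the trend on level removed 5. Their median difference was 0.01 and that of all genes 0.04. In size, 5 of the 10 differed by less than 0.1, against 44.5% of all genes. The iron genes therefore do not share a direction, and the description falls to single members, above all Tfrc and Slc40a1.

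**Figure D1:**
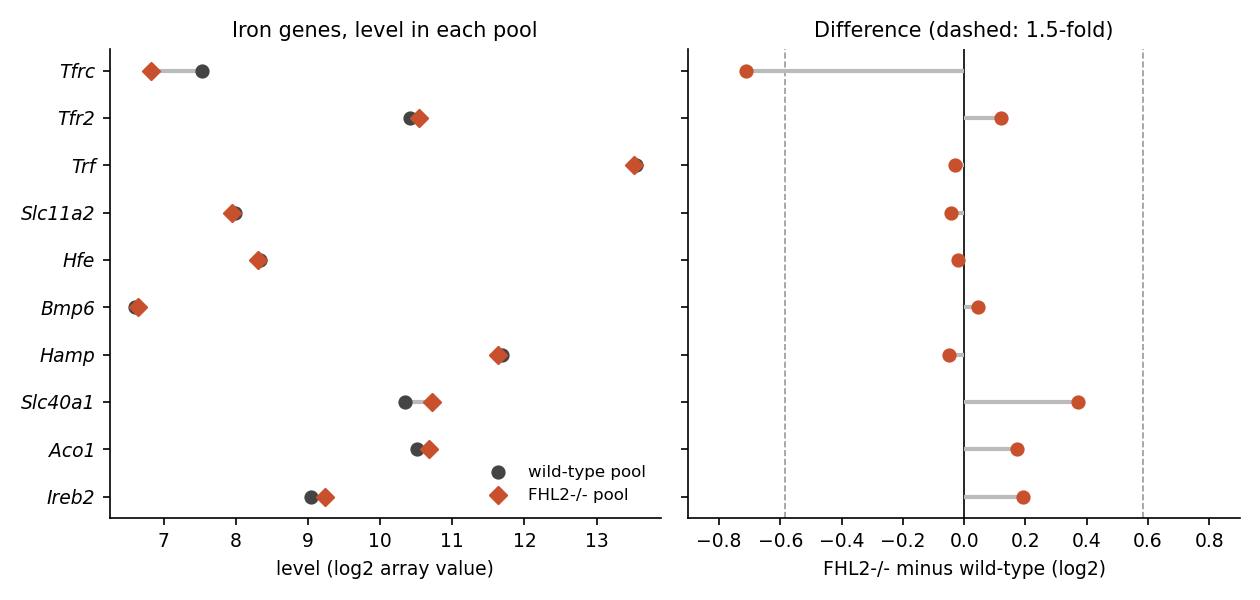
Left, the log2 array value of each iron gene in the wild-type pool (grey circles) and the FHL2-/- pool (orange diamonds), with 1 array per pool and no error bars. Right, the difference between the pools on the log2 scale, with dashed lines at 1.5-fold; Tfrc at -0.71 lies beyond the line, Slc40a1 at 0.37 is the highest, and the markers of Trf, Slc11a2, Hfe, Bmp6 and Hamp nearly coincide on the left.

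Tfrc encodes transferrin receptor 1, the main gate for transferrin-bound iron in most cells. Its level was 7.53 in the wild-type pool and 6.82 in the FHL2-/- pool, a difference of -0.71 or 1.64-fold lower. That placed it at rank 12 from the lowest of 11924 genes. Few genes of like level were as far apart: among the 1495 genes whose mean level lay within 0.25 of that of Tfrc, 8 differed by as much in either direction (0.535%) and 2 by as much downwards. These shares describe the arrays and are not a test. Under the other scalings the difference of Tfrc ran from -0.78 to -0.67, past 1.5-fold in each. In whole liver RNA, fewer cells of a type and less RNA per cell cannot be told apart.

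Transferrin receptor 1 is abundant in immature red cells and in dividing cells, so their markers are given beside it. Of 16 erythroid markers 9 had a probe of their own and 4 passed the filter, with 2 above and 2 below 0. Alas2, the erythroid enzyme of heme synthesis, was at 9.60 in the wild-type pool and 9.89 in the FHL2-/- pool, and Klf1, an erythroid transcription factor, at 5.59 and 5.86. Past the filter and below 0 were the anion exchanger Slc4a1, at 5.55 and 5.42, and Ermap, at 5.87 and 5.59. The transcription factor Gata1 was under the filter, at 5.55 and 4.86. The summed level of the 9 erythroid markers was 10.05 in the wild-type pool and 10.25 in the FHL2-/- pool on the log2 scale, set mostly by Alas2. Without Alas2 the summed level of the other 8 was 8.17 in the wild-type pool and 8.05 in the FHL2-/- pool, with 4 of the 8 below 0, so the side on which the sum lies turns on that gene.

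Of 10 markers of dividing cells 9 had a probe, and 5 passed the filter, with 3 of these below 0. Counted without the filter 7 of the 9 were below 0, on the same side as Tfrc, with a median of -0.14. Over all genes without the filter 53.6% were above 0, and 4 of the 9 markers were under the filter. Of the 7 below 0, Aurkb, Cdc20 and Cdk1 passed the filter, at -0.33, -0.27 and -0.11. The others, under the filter, were Birc5 at -0.31, Top2a at -0.17, Mki67 at -0.14 and Bub1 at -0.0053. The 2 above 0 were Pcna at 0.07 and Mcm2 at 0.05. The proliferation antigen Mki67 was under the filter in both pools, at 5.01 and 4.88. The summed level of the 9 was 10.17 in both pools, and it rests largely on Pcna at 9.59 and 9.66. Lymphocyte markers were dim as well, with 4 of 8 past the filter and a summed level of 8.17 in the wild-type pool and 8.10 in the FHL2-/- pool. The part of these cells in the lower Tfrc value was not tested.

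The stretch of 250 bases before the more upstream of the Tfrc start sites in the RefSeq table (GRCm38.p6, chr16:32608646-32608895, plus strand of chromosome 16) is shown because Tfrc is the member farthest apart. Capitals mark a match to GGCGCC, the core of BMP-responsive elements, starting 89 bases before the start site.
Tfrc: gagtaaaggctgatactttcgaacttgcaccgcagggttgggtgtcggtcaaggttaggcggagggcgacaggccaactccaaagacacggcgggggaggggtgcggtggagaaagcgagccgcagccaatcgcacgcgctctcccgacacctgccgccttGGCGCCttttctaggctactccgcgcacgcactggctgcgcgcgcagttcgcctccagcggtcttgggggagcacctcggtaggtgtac

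This hexamer reads the same on both strands and occurs in 9.59% of 32851 such windows of all genes, so a match is a description of the letters and not a site. The windows were also searched on both strands for the STAT element TTCNNNGAA (7.02% of all windows), the antioxidant response core TGACNNNGC (10.2%) and the hypoxia response core ACGTG (16.6%). None of these 3 occurs in the Tfrc window shown, while ACGTG occurs in the window of its second listed start site. Of the 10 members 7 had an entry in the table, with 10 windows in all.

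**Figure D2:**
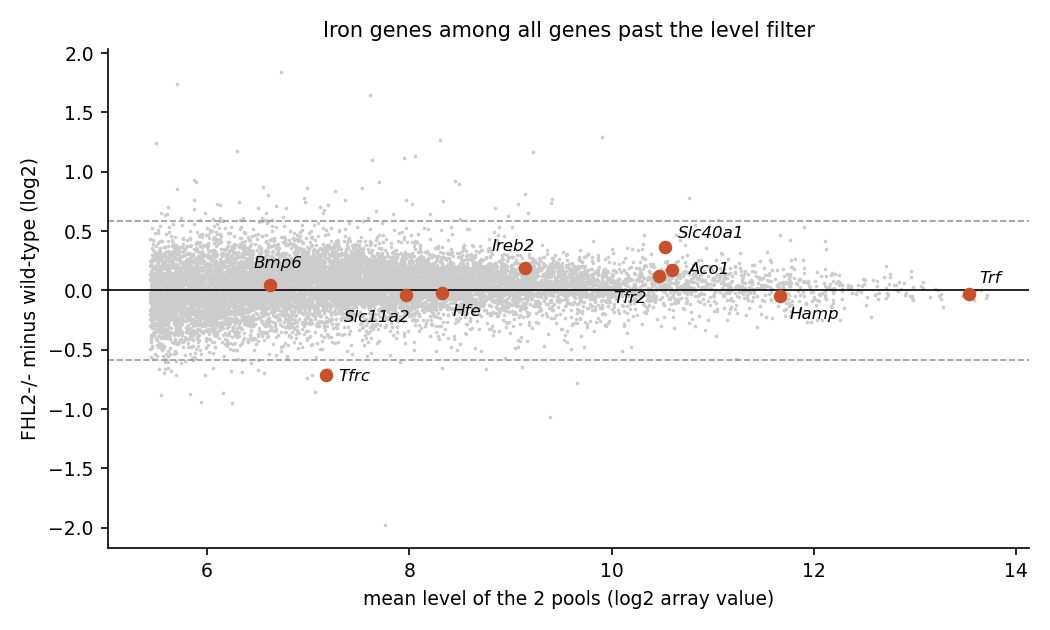
Difference between the pools (vertical axis, FHL2-/- minus wild-type, log2) against mean level (horizontal axis, log2 array value) for the 11924 genes past the level filter (grey) and the 10 iron genes (orange); dashed lines mark 1.5-fold. Tfrc lies below the cloud at its level of 7.17, Slc40a1 lies at the upper edge of the cloud at 10.53, and the other 8 lie inside it.

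The other uptake genes stayed close to 0. Trf, which encodes transferrin, the plasma iron carrier made by hepatocytes, was at 13.55 in the wild-type pool and 13.52 in the FHL2-/- pool, a difference of -0.03 that turned positive, at up to 0.04, under 2 of the 4 alternatives. Few genes are as bright, with 6 within 0.25 of its level. Slc11a2, the divalent metal transporter DMT1 that moves iron out of the endosome, was at 7.99 and 7.95, a difference of -0.04. Of the 1273 genes of like level 80.0% were at least as far apart. Both differences were smaller than the 0.143 SD between probes, which does not cover the spread between mice or arrays.

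Among the sensors, Tfr2, the second transferrin receptor, which hepatocytes use to sense transferrin iron rather than to import it, was at 10.41 in the wild-type pool and 10.53 in the FHL2-/- pool. The difference of 0.12 was in the other direction from Tfrc, and 34.1% of 261 genes of like level differed by as much. Hfe, the MHC class I-like protein that binds transferrin receptor 1 and is mutated in hereditary haemochromatosis, was at 8.33 and 8.31. Its difference of -0.02 became 0.02 with the common median, and 89.7% of 1102 genes of like level were at least as far apart. Bmp6, the endothelial BMP that reports liver iron to hepatocytes, was at 6.60 and 6.64, a difference of 0.05. For it, 79.2% of 1420 genes of like level were at least as far apart. None of the 3 sensors was as far from 0 as the SD between probes.

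Hamp encodes hepcidin, the output of this sensing system. It was at 11.68 in the wild-type pool and 11.64 in the FHL2-/- pool, a difference of -0.05 (-0.08 to -0.0087 under the other scalings), and 68.8% of 128 genes of like level were at least as far apart. Mice carry a second hepcidin gene, Hamp2, so similar that the transcripts can share a probe, and the value of either is uncertain for that reason. Hamp2 was at 9.98 and 9.71, a difference of -0.27. Neither hepcidin gene was higher in the FHL2-/- pool, and neither was 1.5-fold apart.

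The 250 bases before the Hamp start site (GRCm38.p6, chr7:30944030-30944279, minus strand of chromosome 7) are shown because both inputs to hepcidin are read below. Capitals mark GGCGCC, starting 109 bases before the start site, and the STAT element match TTCTTGGAA, starting 97 bases before it.
Hamp: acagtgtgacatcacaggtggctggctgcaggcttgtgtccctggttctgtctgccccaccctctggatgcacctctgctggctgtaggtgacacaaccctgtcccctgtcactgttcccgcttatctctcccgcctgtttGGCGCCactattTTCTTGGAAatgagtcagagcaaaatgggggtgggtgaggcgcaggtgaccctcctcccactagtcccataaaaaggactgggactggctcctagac

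Hamp was the only member with an entry whose window held the STAT element, and GGCGCC occurred in windows of Hamp and Tfrc. The antioxidant core occurred in windows of Hfe and Bmp6, and ACGTG in windows of Tfrc, Tfr2 and Bmp6. Trf, Slc40a1 and Slc11a2 are not listed in the table used here.

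The BMP arm, which acts on GGCGCC, was followed through 24 other genes, among them ligands, receptors, SMAD transducers, inhibitors and known targets. Since the list holds genes that restrain the arm, such as Smad6, Smad7, Tmprss6 and Erfe, a count above 0 gives no direction for its activity. All 24 passed the level filter, 19 were above 0 and 5 below, with a median difference of 0.12 against 0.04 for all genes, of which 59.5% were above 0. With a common median 19 were again above 0, where 69.2% of all genes were, with quantile normalisation 19 against 55.8% and with the trend on level removed 19 against 50.6% (list median 0.07). At least 1.5-fold higher was 1 gene, Id3, against 0.621% of all genes, and 0 were as much lower. Lists this short would mostly hold 0 genes past 1.5-fold at the shares of all genes, so a 0 here and below says nothing about a list.

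Known targets of the BMP signal were spread over the list. Id3, an inhibitor of helix-loop-helix transcription factors, was at 8.84 in the wild-type pool and 9.50 in the FHL2-/- pool, or 1.57-fold higher. Smad7, an inhibitory SMAD that the signal itself induces, was at 6.86 and 7.33, and Id1, a standard readout of the BMP signal in liver, at 6.28 and 6.52. Both were below 1.5-fold, at 0.46 and 0.24, and were chosen after their values were seen. Atoh8, another target, was at 0.09, and Smad6, the other inhibitory SMAD, lay on the other side at -0.27. Id2, related to Id1 and Id3, was at 0.07. So the known targets did not all lie on 1 side, and Hamp, itself a target, was near 0.

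Upstream, Bmp2, the second endothelial BMP that controls hepcidin, was at 7.34 in the wild-type pool and 7.66 in the FHL2-/- pool, a difference of 0.32 beside 0.05 for Bmp6. The type I receptors Acvr1 and Bmpr1a were at 0.28 and 0.21. Of the 24 genes of the list 19 were above 0. The 5 below were Smad6, Erfe, Smad1 at -0.09, Eng at -0.07 and Acvr2b at -0.06. Hjv, the hemojuvelin co-receptor, was at 0.05, and Tmprss6, the protease that cleaves it, at 0.11. Fgl1, a protein secreted by hepatocytes, was at 11.43 and 11.90, a difference of 0.47. Erfe, the erythroid hormone that captures BMPs and lowers hepcidin, was lowest of the list at 6.19 and 5.86, a difference of -0.33. Bmp2, Acvr1, Bmpr1a, Hjv, Tmprss6, Atoh8, Smad1, Eng and Acvr2b were named after their values were seen.

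Endothelial markers were above 0 for 12 of 13 genes, against 59.5% of all genes. Bmp2 lay on the same side, while Bmp6 at 0.05 was close to the median of all genes at 0.04. The median difference of the 13 markers was 0.13, from -0.04 for Lyve1 to 0.50 for Gpr182. Their summed level was 12.15 in the wild-type pool and 12.29 in the FHL2-/- pool. The part of endothelial cells in the values of Bmp2 and Bmp6 was not tested.

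**Figure D3:**
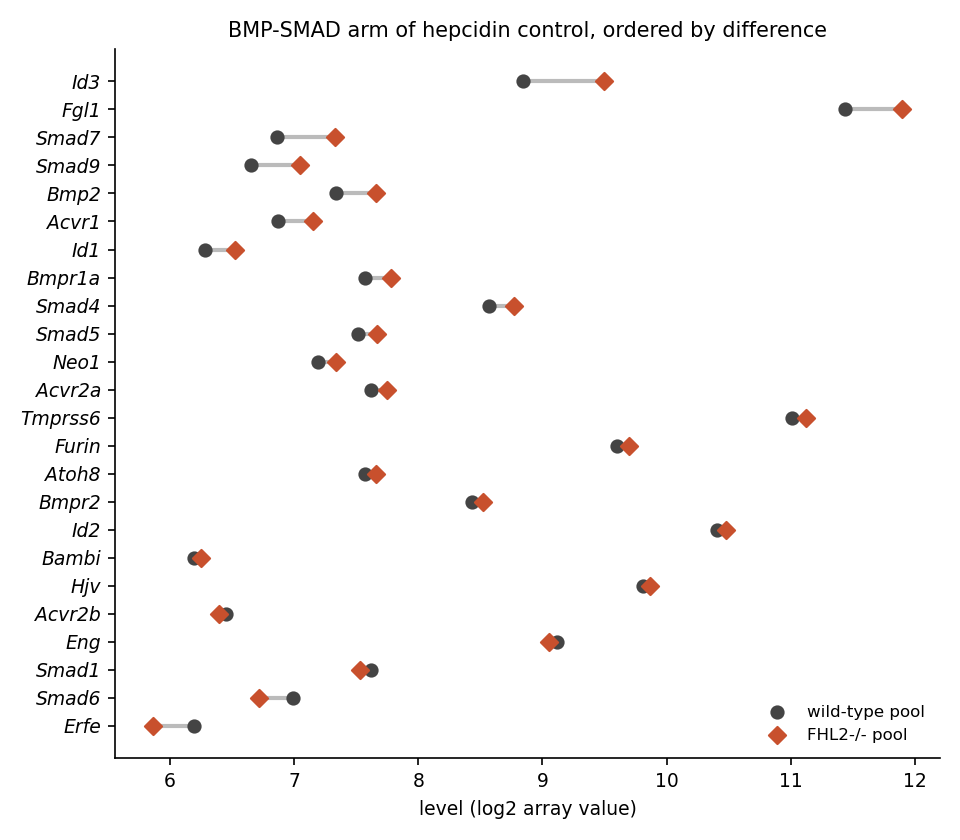
Log2 array value of 24 genes of the BMP-SMAD arm in the wild-type pool (grey circles) and the FHL2-/- pool (orange diamonds), ordered from the highest to the lowest difference, with 1 array per pool and no error bars. The 19 genes from the top down to Hjv are higher in the FHL2-/- pool, led by Id3 at 0.65, and Erfe at -0.33 is the lowest.

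The inflammatory arm, which acts on the STAT element, had 12 of 13 genes past the filter and 0 at 1.5-fold. Of the 12, 8 were above 0 and 4 below (7 and 5 with the trend on level removed), near the 59.5% of all genes above 0. Its median difference was 0.08. Stat3, the transcription factor that carries the signal, was at 9.18 in the wild-type pool and 9.46 in the FHL2-/- pool, and Inhbb, a subunit of activin B, at 5.64 and 5.96. Tyk2, a Janus kinase, was lowest at -0.26, while the Janus kinases Jak1 and Jak2 were at 0.15 and -0.06. Socs3, the feedback inhibitor that STAT3 induces, was at -0.15, and Il6 was under the filter at 3.12 and 3.03. The kinases thus lay on both sides of 0, and so did Stat3 and Socs3.

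Slc40a1 encodes ferroportin, the only known iron exporter of mammalian cells. It was at 10.34 in the wild-type pool and 10.72 in the FHL2-/- pool, a difference of 0.37 or 1.29-fold higher (0.33 to 0.41 under the other scalings). This was the highest value of the 10 iron genes and rank 379 from the highest of 11924. Among 270 genes of like level 6 differed by as much (2.22%), all of them upwards. The difference was 2.59 times the SD between probes and below 1.5-fold.

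Liver macrophages are rich in ferroportin, so their markers are given beside it. The 13 macrophage markers had a median difference of -0.22 (-0.27 to -0.16 under the alternatives), from -0.40 for Adgre1 to 0.22 for C1qc, and their summed level was 11.93 in the wild-type pool and 11.75 in the FHL2-/- pool. The scavenger receptor Cd163, also of macrophages, was at 6.74 and 6.98. Hepatocyte markers had a median difference of 0.04. The part of these cells in the Slc40a1 value was not tested.

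Slc40a1 lies on chromosome 1, as Fhl2 does, and the other 9 members lie on other chromosomes. Among measured genes it is 11 places from Fhl2 in the order of the reference assembly (GRCm38.p6). In mice of mixed background a targeted allele can carry along chromosome of the strain it was made in, so its neighbours are given beside it. Of the 20 nearest measured genes, 10 on each side and without Fhl2, 4 were at least as high as Slc40a1 and 6 at least as far from 0, with a median absolute difference of 0.20 against 0.11 for all genes. The adjoining gene Slc39a10, a zinc importer, was 1.83-fold lower with a dim FHL2-/- value of 5.39, and Ormdl1, a regulator of sphingolipid synthesis 10 places beyond Slc40a1, was 1.88-fold higher. The adjoining gene on the other side, Wdr75, was at 0.20. Among the other 99 measured genes nearest to Fhl2, 11 (11.1%) were at least as far from 0 as Slc40a1, against 5.71% of all other genes. Over the 100 nearest, Slc40a1 included, the median absolute difference was 0.14. The neighbours were not matched for level with the genes they are set against. The part of flanking chromosome in the Slc40a1 value cannot be told apart from the genotype.

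**Figure D4:**
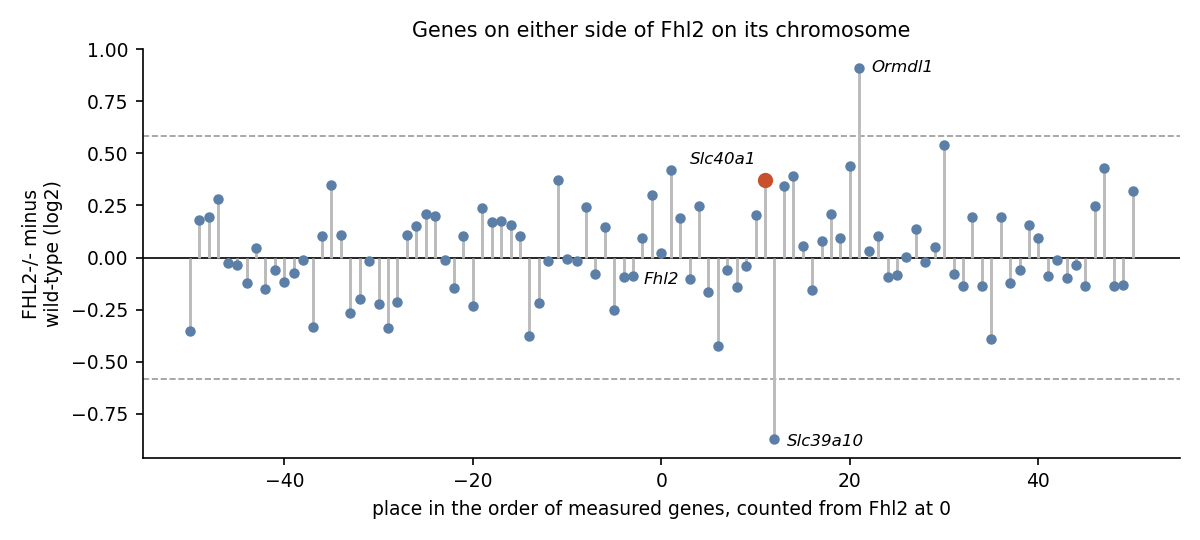
Difference between the pools (vertical axis, FHL2-/- minus wild-type, log2) for the 100 measured genes nearest to Fhl2 on chromosome 1 and Fhl2 itself, in chromosomal order (horizontal axis, number of measured genes from Fhl2); dashed lines mark 1.5-fold. Slc40a1 (orange) stands at place 11 with 0.37, next to Slc39a10, which is the lowest of the window, and Ormdl1 at place 21 is the highest.

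Aco1 and Ireb2 encode the iron regulatory proteins, of which the first is also the cytosolic aconitase when it carries an iron-sulphur cluster. Aco1 was at 10.51 in the wild-type pool and 10.68 in the FHL2-/- pool, a difference of 0.17. Ireb2 was at 9.04 and 9.23, a difference of 0.19. These differences were 1.22 and 1.35 times the SD between probes and lay inside the spread of genes of like level, of which 13.5% of 260 and 16.5% of 666 differed by as much. Both proteins are controlled mainly after translation, so their mRNA levels do not report their activity.

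Of the mRNAs with an iron-responsive element, 3 are members: Tfrc at -0.71, Slc11a2 at -0.04 and Slc40a1 at 0.37. In Tfrc and Slc11a2 the element lies in the tail of the mRNA, where binding can stabilise it, and in Slc40a1, as in ferritin, it lies at the head, where binding blocks translation and need not change the level. The 3 members lay apart from each other. The 1 probe of Slc11a2 was not assigned to transcripts with or without the element. Of 8 further such mRNAs 7 had a probe and 5 passed the filter. All 5 were above 0, against 59.5% of all genes, and 4 with the trend on level removed, against 50.6%. Their median difference was 0.08, against 0.04 for all genes. Ferritin heavy chain Fth1 was at 13.04 in the wild-type pool and 13.08 in the FHL2-/- pool, and ferritin light chain Ftl1 at 12.12 and 12.14. Alas2 was at 0.29 and the hypoxia factor Epas1 at 0.08. Cdc14a, a phosphatase gene under the filter, was at 4.46 and 5.11, or 1.56-fold higher between dim values.

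Control of the iron regulatory proteins showed no common direction, with 3 of 6 genes above 0, against 59.5% of all genes. With a common median it was 4, and with quantile normalisation or the trend on level removed 2. Fbxl5, the iron-sensing subunit of the ubiquitin ligase that marks the iron regulatory proteins for degradation, was highest, at 7.20 in the wild-type pool and 7.51 in the FHL2-/- pool. Its scaffold Cul1 was at 0.07, the ligase subunit Rbx1 at -0.10 and the iron-sulphur assembly factor Ciao3 at -0.08.

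Genes that reduce and import iron beside the transferrin receptor had 14 of 16 members past the filter, 0 at 1.5-fold and a median of 0.04. Of the 14, 8 were above 0, against 59.5% of all genes. It was 10 with quantile normalisation, against 55.8%, and 11 with a common median, against 69.2%. Steap4, a metalloreductase, was highest, at 9.52 in the wild-type pool and 9.86 in the FHL2-/- pool. Ndfip2, an adaptor for the ubiquitin ligases that act on DMT1, was at 0.24, or 0.09 as the mean over its 2 probes. Cybrd1, the ferrireductase known from duodenum, was lowest at -0.28, and Steap3, which reduces iron in the transferrin endosome, was at -0.15.

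Storage genes likewise centred on the median of all genes, with a median of 0.04 and 6 of 9 above 0, against 59.5% of all genes. The exception was Glrx3, a cytosolic glutaredoxin that handles iron-sulphur clusters, at 8.20 in the wild-type pool and 7.60 in the FHL2-/- pool, 1.52-fold lower and 1.48-fold lower with a common median. Its partner Bola2 was at 0.09. Pcbp1, the chaperone that hands iron to ferritin, was at -0.24, and ceruloplasmin Cp, the plasma ferroxidase that works with ferroportin, at 0.12.

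Genes of heme scavenging and heme iron recycling, the main supply of iron to macrophages, had a median of 0.17 with 11 of 13 above 0, against 59.5% of all genes, and 0 at 1.5-fold. With a common median it was 12, against 69.2% of all genes, and with quantile normalisation or the trend on level removed 10, against 55.8% and 50.6%. Hmox1, the heme oxygenase that frees iron from heme, was highest, at 7.20 in the wild-type pool and 7.52 in the FHL2-/- pool, and Cd163 followed at 0.24. The heme exporter Flvcr1 was lowest at -0.32, or -0.08 as the mean over its 2 probes, and Flvcr2 was at -0.0076, or 0.03 with a common median.

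**Figure D5:**
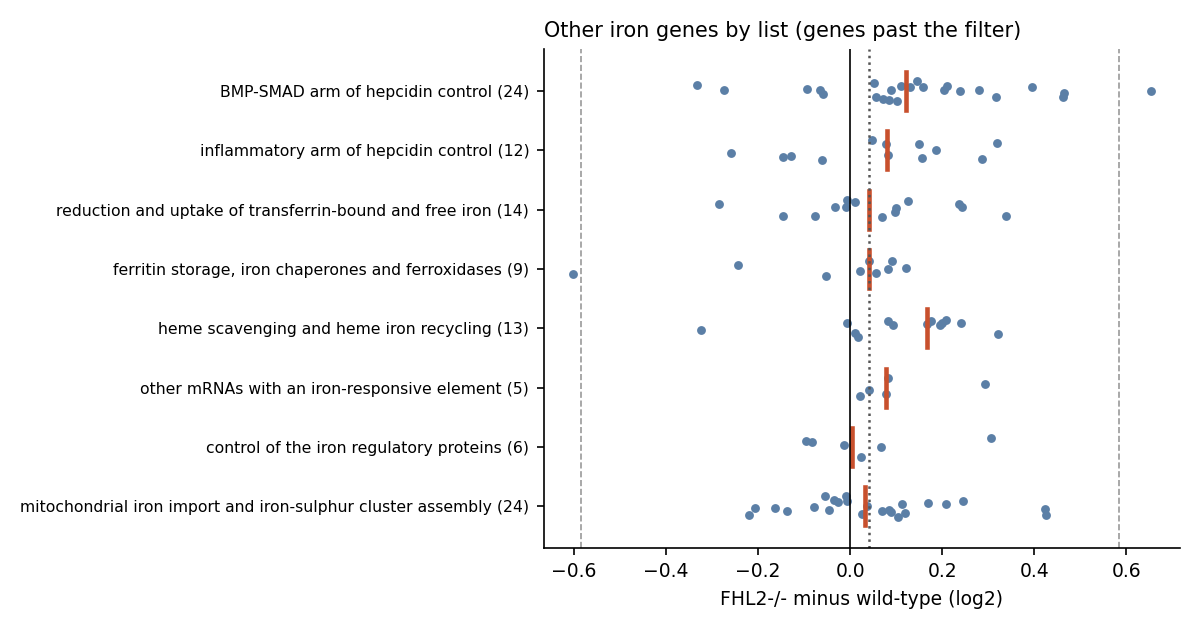
Difference between the pools (horizontal axis, FHL2-/- minus wild-type, log2) for the genes of 8 iron lists that passed the level filter, with their number in parentheses; each point is a gene with random vertical offset, orange bars are list medians, the dotted line is the median of all genes at 0.04 and dashed lines mark 1.5-fold. Heme recycling (0.17) and the BMP-SMAD arm (0.12) have the highest medians, and the points beyond the dashed lines are Id3 and Glrx3.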

How the data were processed

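Values in the deposited table, 1 for each probe and array, are taken to be on a log2 scale, and every fold rests on this. Per the submitters' processing notes the authors used Affymetrix Expression Console 1.0, RMA and Partek 6.4. The order of these tools, their settings and a genome build were not given in the sources used. RMA shrinks differences between dim values, and bringing arrays to a common distribution hides a change in total RNA per cell.

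Probes were named from the platform annotation, and only the 21789 of 28853 with 1 gene symbol were used. A gene took its probe with the highest mean, and genes were filtered at the 40th percentile of mean level. No scaling was added. Analyses ran in Python 3.11.15 with pandas 2.3.3 and statsmodels 0.14.6, and the steps were tested on simulated data. With 1 array per group no test was made, and precision is limited by the number of arrays.

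Named are the members and, in each list, genes past 1.5-fold and the 2 highest and 2 lowest past the filter. Others, cell type markers included, are named for context. Members and lists were chosen with earlier results of these data known. Alternatives were a common median, quantile normalisation, a lowess correction (span 0.3) for the trend on level, the mean over probes, no filter and a filter at the 60th percentile. Sequences are from RefSeq (GRCm38.p6).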

Additional observations from a re-analysis of the deposited data

How the results depend on the processing

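Under a common median, quantile normalisation, lowess and the mean over probes, the shift of each of the 10 iron genes was smaller than the SD of 0.143 between probes. Tfrc stayed at least 1.5-fold lower in all 4, and the mean over probes could not move a member, since each has 1 probe. Trf and Hfe changed sign near 0. The list medians for control of the iron regulatory proteins and for mitochondrial iron also changed sign, with lowest values of -0.05 and -0.02. Without the level filter the counts over all genes at 1.5-fold were 153 higher and 133 lower, and 41 and 14 with the filter at the 60th percentile, where fewer genes are counted. No paired analysis was possible because each genotype has 1 array, and no array could be left out. No detection calls come with the values, so the distance of dim genes from background is unknown.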

Other observations

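Mitochondrial iron import and iron-sulphur cluster assembly, where much of the imported iron is used, was covered by 29 genes, of which 24 had a probe and passed the level filter. Of these, 13 were above 0 and 11 below, where 59.5% of all genes were above 0. Their median difference was 0.03, with 0 genes at 1.5-fold. Slc25a37, the mitochondrial iron importer mitoferrin 1, was at 6.70 in the wild-type pool and 7.13 in the FHL2-/- pool, a difference of 0.43. The co-chaperone Hscb was at 5.26 and 5.68, a difference of 0.42 between values near the filter level. Lyrm4 and Isca1, both of cluster assembly, were at -0.22 and -0.21. With the trend on level removed 12 genes lay above and 12 below 0.

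Outside the iron lists, Alas1, the first enzyme of heme synthesis, was at 9.25 in the wild-type pool and 10.55 in the FHL2-/- pool, and the siderophore-binding protein Lcn2 at 6.78 and 8.43. Both were chosen after their values were seen. Neutrophil markers, which include the iron-binding protein lactoferrin (Ltf), were dim, with 1 of 8 past the filter. Their summed level was 7.95 in the wild-type pool and 7.83 in the FHL2-/- pool. Stellate cell markers had a median difference of 0.04 over 9 genes.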
